A study of Mus musculus with 9 samples.

Results

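Pitx1, Pitx3, Lhx1, Lhx2, Lhx6, Lhx9, Isl1 and Lbx1 are homeobox genes, and their levels were followed here in muscle stem cells of Bmi1-deficient and wild type mice. Their probes were chosen by name alone: each probe that is no control and whose gene name on the array is one of the 8 symbols was taken, which gave 14 of 55681 probes. There was 1 probe each for Pitx1, Pitx3, Lhx2 and Isl1, a pair each for Lhx1 and Lbx1, and 3 each for Lhx6 and Lhx9.

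The satellite cells came from skeletal muscle of FVB mice that were labelled male and 2 months old. The gate took cells with integrin alpha-7 and CD34 on their surface and left out those with Sca1, CD11b, CD45 or CD31. Their RNA was amplified before it was labelled with Cy3 and hybridised to 1-colour Agilent arrays. The KO group, Bmi1-deficient, held 6 arrays and the WT group held 3. The labels give neither the Bmi1 allele nor the number of mice behind a sample, and the genotype field of KO array 1 reads wild type, while its title, source and description place it with the KO arrays.

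LIM-homeodomain proteins, to which the Lhx genes and Isl1 belong, carry a pair of LIM zinc fingers before a DNA-binding homeodomain, and they work in complexes held together by Ldb adaptor proteins. Pitx proteins have a bicoid-type homeodomain. Lbx1 is switched on in the muscle precursors that migrate into the limbs, while Pitx genes and Isl1 act in muscle of the head and in the hindlimb field. Bmi1 belongs to Polycomb repressive complex 1, and promoters of developmental homeobox genes are classic Polycomb targets in mammals, which is why these families are of interest in Bmi1-deficient cells.

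The 6 KO arrays formed 3 pairs. Arrays whose descriptions begin with the same number (1 and 4, 2 and 5, 3 and 6) correlated at r = 0.9944 to 0.9956 over the probes kept, whereas the other 33 pairs of arrays correlated at 0.9622 to 0.9786. The titles number the KO arrays 1 to 6 as biological replicates, so the merging of a pair rests on these correlations and the shared number, and whether its arrays came from the same mice is not known. The arrays of a pair were averaged, giving 3 KO and 3 WT samples. With all 9 arrays as separate samples 1639 probes passed over the whole array, against 21 with 3 KO samples, and 0 member probes passed either way. Nothing states that the WT samples came from separate mice, so the p-values measure the spread between these samples only. Between 71.9% and 75.8% of the spots of an array were well above background, and none was saturated. Bmi1 itself gave 0.58, 0.71 and 0.48 in the KO samples, against 0.40, 0.61 and 0.48 in the WT samples, at probe A_55_P2170335 (difference 0.10, limma adjusted p = 0.864), and its other probe differed by 0.21 (adjusted p = 0.699). The sources used here do not say whether either probe lies in the deleted part, so these values do not check the labels. Cdkn2a, the tumour suppressor locus best known as repressed by Bmi1, was higher in KO by 3.28 ± 0.22 (SE) at probe A_55_P2008437 (limma adjusted p = 0.0207). Its other probe, A_55_P2008438, was well above background on 1 of 9 arrays, differed by 0.69 and was not tested. Levels here are log2 signals relative to the 75th percentile of the array, so 0 stands for that percentile itself, and differences are KO minus WT on that scale.

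None of the 14 probes passed the test between KO and WT. Of the 8 that could be tested, 0 had a limma adjusted p under 0.05, where 21 of 42983 probes, or 0.0489%, did over the whole array (20, or 0.0465%, higher in KO and 1, or 0.00233%, lower). At an unadjusted p under 0.05 there were 2 of the 8, a probe of Lhx6 that was higher in KO and a probe of Lbx1 that was lower, beside 10.7% of all probes tested. That Lhx6 probe entered the test through KO arrays alone, so its p supports nothing. The other 6 probes stayed out of the test because they were well above background on fewer than 3 of the 9 arrays. With KO sample 1 taken from array 4 alone, leaving out the array whose genotype field reads wild type, 0 member probes passed as well; the differences were then -0.68 and -0.27 at the Lbx1 probes, 2.40 at Lhx9 A_55_P2117853, 1.92 at Lhx6 A_55_P2094158 and 1.35 at Isl1. The filter on dim probes is easier to pass for a gene present in KO alone, since 6 of the 9 arrays are KO. Counting for each of the 6 genes tested the probe with the highest mean, 3 were higher and 3 lower in KO with a median difference of 0.05, beside -0.01 over all probes. For Lhx6 that is a probe with a CA repeat; with its other tested probe, 4 were higher and 2 lower and the median was 0.25.

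**Figure D1:**
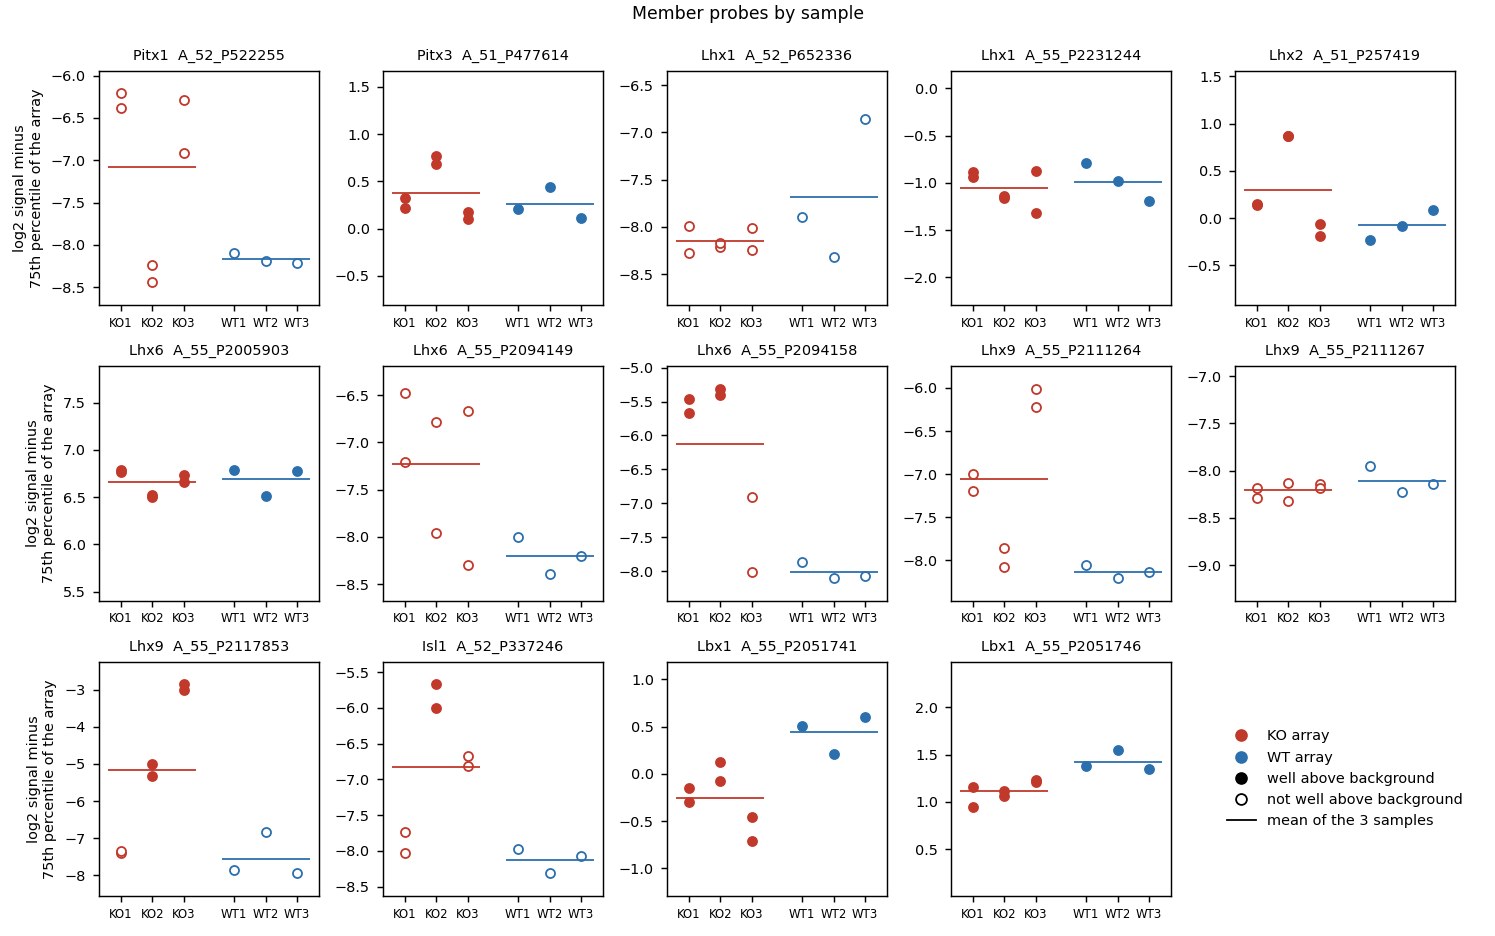
Level of each of the 14 probes on each array, as log2 signal minus the array's 75th percentile (vertical axis, different in each panel); the arrays of KO samples 1, 2 and 3 stand left of WT samples 1, 2 and 3, filled points were well above background, and lines are the means of the 3 samples. Both Lbx1 panels have every KO point below every WT point, while Lhx9 A_55_P2117853 spreads from -7.37 to -2.93 among the KO samples.

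Lbx1 is the member tied most closely to limb muscle. Its knockout mice lack part of their limb muscles because precursors fail to migrate, and in adult muscle it is found in activated satellite cells. The probe A_55_P2051741 lies at chr19:45308588-45308647 (mm9, minus strand), in the sequence that encodes the homeodomain, and A_55_P2051746 lies at chr19:45307178-45307237 (mm9, minus strand) and holds an AATAAA. The sequences are shown because they place the probes in different stretches of the transcript; capitals mark AATAAA, the usual signal for polyadenylation, and of the second probe the last 30 bases are given.
Lbx1 A_55_P2051741: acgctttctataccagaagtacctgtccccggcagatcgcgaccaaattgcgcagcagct
Lbx1 A_55_P2051746, bases 31 to 60: tccgataAATAAAgtctttgccattttact

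At the homeodomain probe Lbx1 had levels of -0.23, 0.03 and -0.58 in KO samples 1, 2 and 3, against 0.51, 0.21 and 0.60 in WT samples 1, 2 and 3. Every KO sample was below every WT sample. The means were -0.26 ± 0.31 in KO and 0.44 ± 0.20 in WT (SD, n = 3 each), a difference of -0.70 with a 95% interval of -1.20 to -0.20, so that the KO level was 0.616-fold the WT level. The unadjusted limma p was 0.0144, but the adjusted p was 0.305, and an exact two-sided permutation test gave p = 0.1, the smallest that 3 samples against 3 allow. At the second probe the levels were 1.05, 1.09 and 1.22 in KO samples, against 1.38, 1.55 and 1.35 in WT samples. Again no KO sample reached a WT sample. The difference there was -0.31 (95% interval -0.62 to 0.01, limma adjusted p = 0.478, exact permutation p = 0.1). In bulk samples such as these, fewer cells with a transcript and less of it per cell cannot be told apart.

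The Lbx1 differences had the same sign on both slides. Each KO sample had an array on either slide, so the slides do not give independent KO samples. On slide 1, which held WT samples 1 and 3, the homeodomain probe differed by -0.71, and on slide 2, with WT sample 2, by -0.57. The second probe differed by -0.20 and -0.47 on slides 1 and 2. With slide as a block the differences were -0.64 at the homeodomain probe and -0.34 at the second. Of the 8 probes tested, the pair for Lbx1 had all KO samples below all WT samples, which 7.94% of all probes did, and Lhx6 A_55_P2094158 was the one with all KO samples above, which 8.58% did, although that probe passed the filter through KO arrays alone. Groups without overlap were thus 3 of 8, beside 16.5% of all probes tested.

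**Figure D2:**
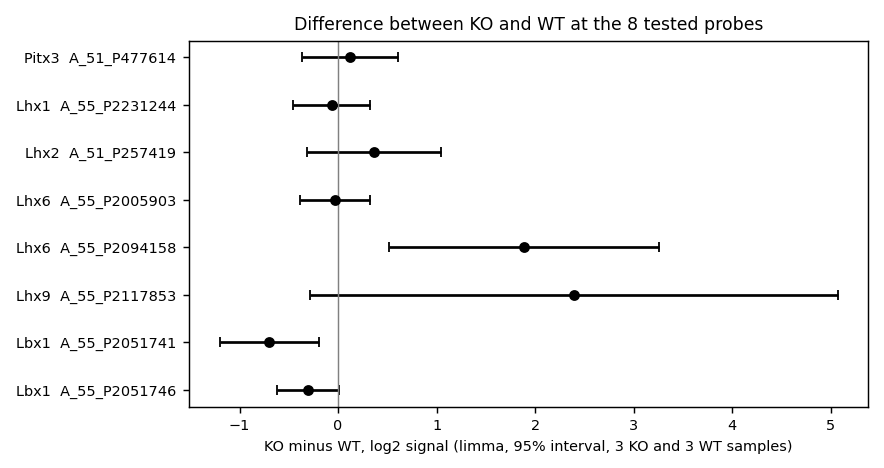
Difference between KO and WT at the 8 tested probes (horizontal axis, KO minus WT in log2 signal), with points for the limma estimate and bars for its 95% interval over 3 KO and 3 WT samples. The interval lies below 0 for Lbx1 A_55_P2051741, which did not pass after adjustment. Those of Lhx6 A_55_P2094158 and Lhx9 rest on WT readings not above background and support no difference, and that of Lhx9 is the widest, from -0.28 to 5.07.

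Lhx9 acts in the early gonad, the limb bud and the brain. Its probe A_55_P2117853 lies at chr1:140729280-140729339 (mm9, minus strand) in homeodomain sequence, and it is printed because the KO samples differed from each other most at this probe.
Lhx9 A_55_P2117853: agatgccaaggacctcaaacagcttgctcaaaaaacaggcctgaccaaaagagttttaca

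In KO samples 1, 2 and 3 this probe had levels of -7.37, -5.17 and -2.93, against -7.87, -6.83 and -7.95 in WT samples. The arrays of a pair matched closely: the processed signal was 7.43 and 6.93 on the arrays of KO sample 1, 33.6 and 40.3 on those of KO sample 2, and 155 and 156 on those of KO sample 3, against 5.05, 12 and 4.26 on the WT arrays. Lhx9 was thus well above background on the 4 arrays of KO samples 2 and 3 and on no WT array, and KO sample 1 lay below WT sample 2. The difference in means was 2.39 (95% interval -0.28 to 5.07, limma adjusted p = 0.52, exact permutation p = 0.2). The probe entered the test through KO arrays alone, and 2 of its 3 WT readings are surrogates. Since no WT array measured the transcript, the size is given as a bound, at least 2.06-fold with all KO samples. It holds for these means under this processing alone and is no test of KO against WT. Without KO sample 3 no bound is left. This bound sets the KO mean against, on each WT array, the lowest signal among probes well above background or the probe's own if higher. KO sample 3 weighs most: without it the difference was 1.28, and without KO sample 1 it was 3.50. Within slide 1 it was 2.74, within slide 2 it was 1.69 and with slide as a block 2.21. The background correction also sets the size, which was 0.63 after normexp with an offset and 0.72 in the authors' deposited table. Both are smaller than the bound, which is 1.04 in log2.

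The other probes of Lhx9, A_55_P2111264 (chr1:140721909-140721968) and A_55_P2111267 (chr1:140727544-140727603, both mm9, minus strand), were well above background on none of the 9 arrays. At the first, the levels were -7.10, -7.97 and -6.12 in KO samples, against -8.06, -8.21 and -8.14 in WT samples. KO sample 3 read highest, but the WT readings are all surrogates, so this order adds no support to the other probe. At the second, KO and WT samples overlapped.

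Isl1 marks progenitors of the second heart field and some head muscles, and it specifies motor neurons. Its probe A_52_P337246 (chr13:117088774-117088833, mm9, minus strand) was printed on the array 10 times, so each array gives 10 readings; the last 30 bases are shown to identify it.
Isl1 A_52_P337246, bases 31 to 60: aatgactgttttcgctctttctggaaataa

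The Isl1 levels were -7.88, -5.83 and -6.74 in KO samples, against -7.98, -8.31 and -8.08 in WT samples. All KO samples were above all WT samples, with KO sample 1 close to WT sample 1. KO array 1 alone, at -8.02, was below WT sample 1. On the arrays of KO sample 2 the median signal of the spots was 20.9 and 25.4, with 5 and 7 of 10 spots well above background. On the arrays of KO sample 3 it was 12.1 and 14, with 0 and 1 such spots. On those of KO sample 1 it was 4.18 and 4.39, against 4.67, 4.28 and 3.76 on the WT arrays, with no such spot on any of these. By the rule that at least 0.5 of a probe's spots be well above background, Isl1 was measured in KO sample 2 alone, and the probe did not enter the test. On the arrays of WT samples 1, 2 and 3, surrogates made up 10, 9 and 8 of the 10 spots. The exact permutation p = 0.1, the smallest possible, thus rests on the floor of the scanner software and supports nothing. The difference in means was 1.30, with 1.18 on slide 1 and 1.52 on slide 2 taken alone, and 0.81 without KO sample 2. With slide as a block it was 1.35. No fold is given, since the KO mean was below the detection limit of the WT arrays.

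**Figure D3:**
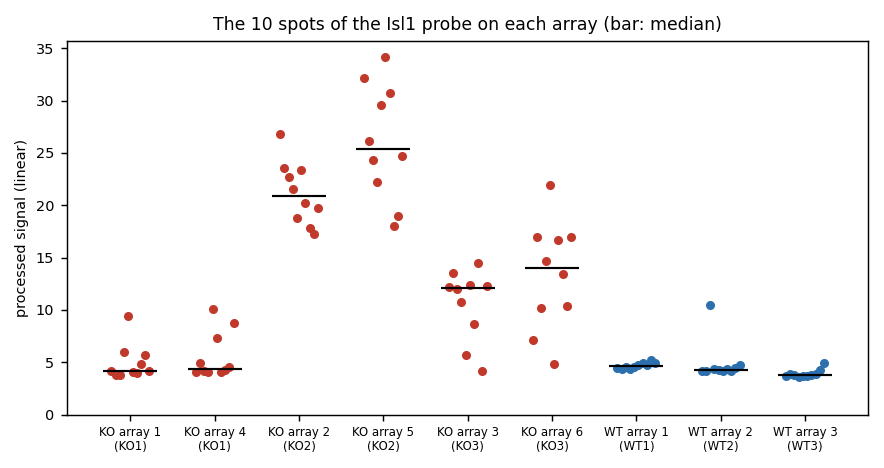
Processed signal (vertical axis, linear) of the 10 spots of the Isl1 probe on each array, KO arrays grouped by sample left of the WT arrays, with bars at the median. The spots of KO sample 2 run from 17.3 to 34.2, those of KO sample 3 reach 21.9, and those of KO sample 1 and of the WT arrays stay at or below 10.5.

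Lhx6 directs interneurons of the forebrain and is expressed in jaw mesenchyme. Its probes disagreed, and their sequences show how they differ. A_55_P2005903 (chr2:35937644-35937703) ends in CA repeated 14 times, A_55_P2094158 (chr2:35937470-35937529) holds an AATAAA, and A_55_P2094149 (chr2:35958379-35958438, all mm9, minus strand) lies in LIM domain sequence. Capitals mark the CA repeat and the first AATAAA, which another AATAAA, left in small letters, overlaps.
Lhx6 A_55_P2005903, bases 31 to 60: aaCACACACACACACACACACACACACACA
Lhx6 A_55_P2094158, bases 1 to 30: tcttatttgtgtAATAAAtaaagttaatgc
Lhx6 A_55_P2094149: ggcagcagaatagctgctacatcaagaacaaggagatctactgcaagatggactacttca

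The CA repeat probe had levels of 6.78, 6.51 and 6.70 in KO samples, against 6.78, 6.52 and 6.77 in WT samples. It did not differ beyond its spread (difference -0.03, 95% interval -0.38 to 0.33, limma adjusted p = 0.972, exact permutation p = 0.6). All 22 probes of the array with at least 10 CA in a row were well above background on all 9 arrays, which 66.5% of all probes were, and so were 66 of 68 probes with 5 to 9. How much of this probe's signal comes from Lhx6 was not tested.

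At A_55_P2094158, Lhx6 had levels of -5.56, -5.36 and -7.46 in KO samples, against -7.86, -8.10 and -8.08 in WT samples. Every KO sample was above every WT sample, and the probe was well above background on the 4 arrays of KO samples 1 and 2 and on no WT array. The signal was 24.5 and 25.6 on the arrays of KO sample 1, 31.7 and 32.7 on those of KO sample 2, and 4.33 and 10.4 on those of KO sample 3, against 5.07, 4.98 and 3.9 on the WT arrays. The difference was 1.89 (limma adjusted p = 0.311, exact permutation p = 0.1), but the probe entered the test through KO arrays alone and all 3 WT readings are surrogates, so its p and its interval are set by the floor of the scanner software. As a bound it is at least 1.05-fold, and without KO sample 1 or KO sample 2 no bound is left. Without KO sample 1 the difference was 1.61 (limma adjusted p = 0.567), without KO sample 2 the adjusted p was 0.494 and without KO sample 3 the difference was 2.55 (adjusted p = 0.0585, the lowest of the alternatives, which ran up to 0.846), and after normexp with an offset it was 0.33. Within slides 1 and 2 it was 1.68 and 2.14, and with slide as a block 1.91. The LIM domain probe was well above background on no array, with levels of -6.84, -7.37 and -7.48 in KO samples, against -8.01, -8.39 and -8.20 in WT samples. All KO samples were above all WT samples, but all 3 WT readings are surrogates and the arrays of a KO pair differed from each other by up to 1.64. KO array 6 alone, at -8.30, was below WT samples 1 and 3, so this order adds no support to the other probe.

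Probes that were measured in KO but not in WT were thus 3 of the 14: those for Lhx6, Lhx9 and Isl1 were well above background on both arrays of at least 1 KO sample and on no WT array, which 2.44% of all 55681 probes were. The same 3 are those above background on any KO array and on no WT array, beside 4.69% of all. A probe well above background on some WT array and on no KO array was found 0 times among the 14, beside 1.54% of all. The KO sample with the highest level was sample 2 for Lhx6 A_55_P2094158 and Isl1, and sample 3 for Lhx9 A_55_P2117853. Over the 14 probes without any filter, 4 had all KO samples above all WT samples, beside 7.12% of all probes, and 2 had them all below, beside 7.19%. At each of those 4, a single KO array read below WT sample 1, so the order held only for averaged pairs. These were KO array 6 at Lhx6 A_55_P2094149 (-8.302 against -8.006) and KO array 3 at Lhx6 A_55_P2094158 (-8.015 against -7.862). The others were KO array 5 at Lhx9 A_55_P2111264 (-8.078 against -8.055) and KO array 1 at Isl1 (-8.024 against -7.976). Most of the dim readings on WT arrays are small surrogate values set by the scanner software, which take no true spread.

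The promoters of Lhx9 and Isl1 are given because these genes were measured in at least 1 KO sample and on no WT array. The sequence is the 250 bases before the annotated start from RefSeq (GRCm38.p6), both on the minus strand, with CG dinucleotides in capitals; 6 of the 8 genes matched the table. In the whole window of 300 bases, Isl1 has 37 CG, and 5.6% of 32851 windows have as many or more. Lhx9 has 6 CG in its window, and 56.4% of windows have as many or more, around the median of 7. Lhx6, whose CA repeat probe was bright on the WT arrays, has 16, 17 and 11 CG in its windows, which are not printed. Over all 9 windows of the 6 genes the number of CG ran from 6 to 37. CG reads the same on both strands, and no binding was measured here.
Lhx9, chr1:138842445-138842694: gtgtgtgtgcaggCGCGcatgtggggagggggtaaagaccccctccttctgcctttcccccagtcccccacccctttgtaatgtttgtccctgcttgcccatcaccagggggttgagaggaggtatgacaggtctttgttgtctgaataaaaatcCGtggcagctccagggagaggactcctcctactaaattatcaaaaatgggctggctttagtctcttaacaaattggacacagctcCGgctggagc
Isl1, chr13:116309689-116309938: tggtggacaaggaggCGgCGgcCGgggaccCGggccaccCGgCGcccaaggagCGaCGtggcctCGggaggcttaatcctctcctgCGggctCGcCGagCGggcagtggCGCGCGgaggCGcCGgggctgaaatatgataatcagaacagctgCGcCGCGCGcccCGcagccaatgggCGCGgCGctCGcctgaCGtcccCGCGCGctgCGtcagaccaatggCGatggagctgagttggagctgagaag

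Lhx2 acts in hair follicle stem cells and is needed for the eye and the limb bud. At A_51_P257419 (chr2:38224933-38224992, mm9, plus strand) its levels were 0.14, 0.87 and -0.13 in KO samples, against -0.23, -0.08 and 0.09 in WT samples. It was well above background on all 9 arrays, and the groups overlapped. The difference of 0.37 (95% interval -0.31 to 1.05, limma adjusted p = 0.724, exact permutation p = 0.3) was smaller than the SD among KO samples, 0.52, and rested on KO sample 2, since without it the difference was 0.08.

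Lhx1 organises the early head and the kidney. Its probe A_55_P2231244 (chr11:84335442-84335594, mm9, minus strand) spans 153 bases of the genome with 60 bases of sequence. It gave -0.91, -1.15 and -1.10 in KO samples, against -0.78, -0.98 and -1.19 in WT samples. All 9 arrays were well above background and the groups overlapped, with a difference of -0.07 (95% interval -0.45 to 0.32, limma adjusted p = 0.935, exact permutation p = 0.7). The other probe, A_52_P652336 (chr11:84331888-84331947, minus strand), was well above background on no array.

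Pitx3 takes part in the differentiation of muscle cells and is otherwise known from the lens and dopamine neurons. At A_51_P477614 (chr19:46210179-46210238, mm9, minus strand) it had levels of 0.27, 0.72 and 0.14 in KO samples, against 0.21, 0.45 and 0.11 in WT samples, with all 9 arrays above background. The groups overlapped, with a difference of 0.12 (95% interval -0.36 to 0.61, limma adjusted p = 0.894, exact permutation p = 0.6). Pitx1, which gives the hindlimb its identity, was well above background on no array at A_52_P522255 (chr13:55926417-55926476, mm9, minus strand). Its levels were -6.30, -8.34 and -6.61 in KO samples, against -8.10, -8.19 and -8.22 in WT samples, so KO samples 1 and 3 read higher and KO sample 2 lower than any WT sample.

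The KO samples differed from each other at 5 of the 8 tested probes by a limma F test over the paired arrays (adjusted p under 0.05), beside 50.2% of all probes, a share near that of the members. This test takes the arrays of a pair as replicates and so compares these libraries only. Lhx9 A_55_P2117853 had the lowest adjusted p, 0.00027, with a range of 4.44 among KO samples, against 1.12 among WT samples, and at most 0.31 between the arrays of a pair. Lhx2 ranged over 0.998 among KO samples, against 0.32 among WT samples (adjusted p = 0.0014). Pitx3 (adjusted p = 0.00734), Lhx6 A_55_P2094158 (0.0124) and Lbx1 A_55_P2051741 (0.0309) were the others. The Lhx9 and Lhx6 probes were each kept through 4 KO arrays alone, while their remaining KO sample was not well above background. The filter itself thus favoured a difference among KO samples at these probes, and their p supports nothing.

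**Figure D4:**
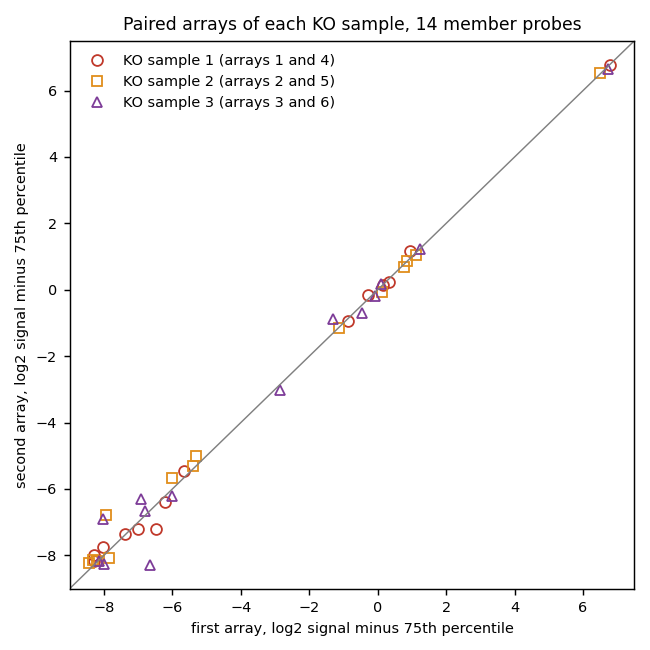
Level of the 14 probes on the first array (horizontal axis) and the second array (vertical axis) of each KO sample, both as log2 signal minus the 75th percentile, with the line of equal values. Points lie near the line above about -6, and below it the arrays of a pair part by up to 1.64.

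Other genes of the same families were compared in the same way. Of 9 such genes, 4 were tested, 2 higher and 2 lower in KO, and 0 passed. Lmx1a, which patterns the dorsal midline and dopamine neurons, had levels of -2.08, -2.53 and -3.61 in KO samples, against -4.59, -4.03 and -4.79 in WT samples. It was the largest difference of the list, 1.73 (limma adjusted p = 0.243), with all KO samples above all WT samples. The probes of Lhx3, Lhx4, Lhx5, Lhx8 and Isl2 were well above background on no array.

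Among 10 LIM cofactors, all tested, 4 were higher and 6 lower in KO, with 0 passing and a median of -0.01. Ldb2, an adaptor that joins LIM-homeodomain proteins into complexes, had levels of -0.64, -0.78 and -0.98 in KO samples, against -3.33, -2.42 and -2.26 in WT samples. The groups were far apart, with a difference of 1.87 ± 0.31 (SE), but the limma adjusted p was 0.124. Lmo2, a LIM-only protein that competes for these adaptors, differed by -0.53 (adjusted p = 0.358), and Ldb1, the widely expressed adaptor, by -0.01 (adjusted p = 0.989).

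Genes that act with Lbx1 in migrating limb precursors were all 4 tested, and 0 passed. Pax3, which stands above Lbx1 in those cells, had levels of -0.62, -0.91 and -0.21 in KO samples, against -1.97, -1.92 and -1.52 in WT samples, a difference of 1.22 (limma adjusted p = 0.153). Pax3 was thus above all WT samples in every KO sample, where Lbx1 was below. Met, the receptor that guides migration, differed by -0.27 (adjusted p = 0.726). Of 5 factors of head muscle and limb fields, 4 were tested and 0 passed: Msc differed by 0.56 (adjusted p = 0.335) and Tbx1 by -0.69 (adjusted p = 0.563), while the probe of Tbx5, the forelimb factor, was well above background on no array.

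Markers of satellite cells were present: all 10 were well above background on all 9 arrays, and 0 passed, with a median difference of 0.09. Pax7 differed by 0.02 (limma adjusted p = 0.981), Sdc4 by 0.75 (adjusted p = 0.141) and Chrdl2 by -0.33 (adjusted p = 0.487). Their summed level, in multiples of the 75th percentile signal, was 76.8 to 79.7 in KO samples and 70.4 to 77.4 in WT samples.

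Markers of 4 other cell types were mostly higher in KO, none passing the test, beside a median of -0.01 over all probes. All 7 endothelial markers were higher in KO (median 1.12), with a summed level of 4.77 to 6.79 in KO samples and 3.66 to 4.91 in WT samples, and Tie1 had the largest difference (2.92, limma adjusted p = 0.658). At Tie1, KO sample 2 (-6.97) lay below WT samples 1 and 2 (-6.32 and -4.14). Pecam1, Flt1 and Tie1 were not well above background on every WT array. Of those that were, Kdr, Tek and Emcn differed by 0.17, 0.17 and 0.24, and Esam by 1.12. Of 7 mesenchymal markers 6 were higher (median 0.92), with sums of 108 to 119 in KO samples and 87.4 to 96.3 in WT samples. Pdgfra (2.93, adjusted p = 0.123) was well above background on no WT array. It entered the test through KO arrays alone, so its p supports nothing, and its difference rests on WT readings not above background. Dpt was lowest (-0.01, adjusted p = 0.992).

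All 6 mural markers were higher in KO (median 0.65, sums of 29.1 to 33 in KO samples and 22.4 to 31 in WT samples), Pdgfrb most (1.35, adjusted p = 0.0567). The mural sums read mostly the Acta2 probe, which had the highest level of the list, 4.76 in KO and 4.57 in WT (limma adjusted p = 0.719). Of the 6 glial markers tested 5 were higher (median 0.73, sums of 31.6 to 34.2 in KO samples and 21.5 to 28.3 in WT samples), Mbp most (1.38, adjusted p = 0.0931), and Ngfr was lowest (-0.35, adjusted p = 0.709). Their part in the levels of Lhx9, Isl1, Pax3 and Lhx6 A_55_P2094158, whose differences were also above 0 and did not pass or were not tested, was not tested.

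In the remaining lists 0 genes passed. Immune markers had a median of -0.02, with Cd68 at 0.45 (adjusted p = 0.447) and Itgam at -0.08 (adjusted p = 0.895), and sums of 120 to 133 in KO samples and 123 to 143 in WT samples. The Itgam probe holds a CA repeat as the Lhx6 probe does, and without it the sums were 4.66 to 5.20 in KO samples and 4.73 to 5.29 in WT samples, with a median of 0.18. The probe of Lyz2, a defining marker, was well above background on no array. Neuronal markers had a median of -0.10, with Stmn2 at 0.79 (adjusted p = 0.636) and Elavl4 at -0.13 (adjusted p = 0.841), and sums of 116 to 124 in KO samples and 112 to 137 in WT samples, with Syt1 not well above background anywhere. The probes of Snap25 and Elavl4 hold CA or TG repeats, and without them the sums were 0.241 to 0.290 in KO samples and 0.182 to 0.241 in WT samples, with a median of 0.14. Keratinocyte markers had a median of -0.04, with Krt10 at 0.10 (adjusted p = 0.907) and Krt14 at -0.26 (adjusted p = 0.721), and sums of 85.8 to 96.7 in KO samples and 91.5 to 102 in WT samples. Trp63 had the highest level of this list, 6.48 in KO and 6.59 in WT, and Krt10 the next, 0.71 and 0.61. The keratinocyte sums thus read the Trp63 probe almost alone. Krt5 was above background on a single array, a WT one.

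The genes whose levels ran most like each member were found by Pearson's r over the 6 samples as a description, with no test. Lhx9 A_55_P2117853 was followed most closely by Ihh (r = 0.9927), a hedgehog ligand of cartilage, Optc (0.9910) and Dido1 (0.9885). Lbx1 A_55_P2051746 was followed by Tvp23a (0.9972), Lta4h (0.9967) and Lrpprc (0.9902). For Lhx2 they were Gmip (0.9978), Dusp12 (0.9785) and Asnsd1 (0.9781), and for Pitx3 they were Ddah2 (0.9949), Jak1 (0.9879) and Ctsa (0.9875). For Lhx1 they were Tjp3 (0.9874), Slc39a5 (0.9836) and Cox16 (0.9828), and for the CA repeat probe of Lhx6 they were Aldh4a1 (0.9925), Klhl29 (0.9910) and H2-T3 (0.9881).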

How the data were processed

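RNA of satellite cells was measured on 6 KO and 3 WT Agilent arrays of 1 colour. The authors deposited scanner output, an intensity per spot; per the file headers, Feature Extraction 10.7.3.1 subtracted background and set dim values to surrogates, and coordinates are mm9. The values that the authors deposited per probe are log2 by their match to normexp (offset 50) and quantile normalization (r = 0.9999759, largest difference 0.05691, column medians near 7.806, not centred), and were used as an alternative.

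Here, log2 of the processed signal minus the array's 75th percentile was taken, outlier spots (93 to 148 per array) were dropped and repeat spots averaged. The 35 probe values this left empty took the mean of that probe on the remaining arrays; none was a member's. Kept were 42983 probes well above background (at least 0.5 of their spots) on 3 or more of 9 arrays. The 3 KO and 3 WT samples were compared per probe with lmFit and eBayes of limma 3.58.1 (R 4.3.3, with version 1.17.8 of data.table), adjusted by Benjamini-Hochberg over all kept probes at 0.05. Member probes were also tested by exact permutation over 20 splits, two-sided. Scripts were tested on simulated data. Python 3.11.15, pandas 2.3.3 and matplotlib 3.10.9 served for reading and plotting. The number of arrays limits precision.

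Through RefSeq names of GRCm38, accession named 26401 probes, symbol 1982 and synonym 337, while 26961 keep the array's name. The text names all members, the 3 genes with the highest r to each tested member, and the largest difference up and down of each list. One gene that this rule names is not reported here. Ldb1, Pax7, Trp63, CA and TG repeats (lead probes with at least 5 in a row left out), markers not above background and the test among KO samples were added after seeing values. Members and lists were chosen with earlier results of these data known.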

Additional observations from a re-analysis of the deposited data

How the results depend on the processing

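Under all 21 alternatives to the processing, 0 of the member probes passed. The number of probes that passed over the whole array was 21, and it moved to 282 with normexp and the 75th percentile, 220 with normexp and quantile normalization, 208 in the authors' table, 61 when probes had to be above background on every array of a group, 1 with slide as a block, 0 within slide 1 and 0 within slide 2. It was 1639 with all 9 arrays as separate samples, 610 with the sample as a random block and 364 with the slide added, and between 0 and 3 when 1 sample was left out: 0 without each WT sample and without KO sample 2, 3 without KO sample 1 and 2 without KO sample 3. With the replicate number as a block it was 0, and this block changed no member's call. Same-numbered samples deviated from their groups together at r = -0.0273, 0.015 and 0.0189, against -0.0655 to 0.0513 for other numbers. Whether same-numbered KO and WT samples share more than a number is not known. With normexp, probes that are dim in WT moved towards 0, because the offset compresses dim signals.

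Lbx1 A_55_P2051741 stayed lower in KO under all 21 (-0.84 to -0.54), and its adjusted p ran from 0.0796, with 9 arrays taken as separate, to 1. Lbx1 A_55_P2051746 (-0.47 to -0.20), Lhx9 A_55_P2117853 (0.63 to 3.50), Lhx6 A_55_P2094158 (0.33 to 2.55), Lhx2 (0.08 to 0.58) and Isl1 (0.21 to 1.83, over the 20 that gave it a value) also kept their direction. Differences near 0 changed sign, and the cause was not tested. The CA repeat probe of Lhx6 gave 0.032 with normexp and quantile normalization, 0.02 with quantile normalization alone, 0.033 in the authors' table, 0.015 with slide as a block, 0.14 within slide 2 and -0.116 to 0.045 when 1 sample was left out. Pitx3 gave -0.051 within slide 2 and -0.051 to 0.241 when 1 sample was left out. Lhx1 A_55_P2231244 gave 0.005 within slide 2 and -0.172 to 0.034 when 1 sample was left out. Slide 2 holds 1 WT sample, which is assumed there to vary as the KO samples do. Faint signal limits what Isl1, Pitx1 and the dim probes of Lhx6 and Lhx9 can show.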
